A study of Homo sapiens with 18 samples.

Results

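Catenins are the cytoplasmic proteins that bind the tails of classical cadherins, and the messenger RNA of 3 of them is described here: CTNNA1 (alpha-catenin), CTNNB1 (beta-catenin) and CTNND1 (p120-catenin). The genes were taken by name, with every array probe annotated to them: 2 probes of CTNNA1, 7 of CTNNB1 and 5 of CTNND1, or 14 of the 47321 probes and 3 of the 20046 genes tested. The question was whether catenin mRNA followed the loss of CDH1 (E-cadherin) and the gain of CDH2 (N-cadherin). The cadherins were changed by TGFB1, by SNAIL and by a hairpin against CDH1. These 3 main comparisons called 3, 2 and 1 of the 14 probes, against 20.4%, 24.1% and 22.7% of all probes. No catenin probe was called in all 3, and the share of all probes called in all 3 is not given here. The group means of CTNNA1 spanned 0.24 and 0.33 log2 units on its 2 probes, and 1 of these probes was called 1.26-fold lower where CDH1 was silenced. No CTNNB1 probe passed the test in the 3 main comparisons. Under TGFB1, however, 4 of its 7 probes were higher at an unadjusted p below 0.05, and each of these passed in some alternative settings. CTNND1 fell on 3 of its 5 probes under TGFB1, where CDH1 was largely kept, and on 2 of the 5 under SNAIL, where CDH1 was lost. Where CDH1 was silenced, the CTNND1 difference from the non-target hairpin did not pass the test on any probe.

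At the adherens junction, the outer parts of cadherins on neighbouring cells bind each other, and their tails bind catenins inside the cell. Beta-catenin binds the far end of the tail and carries alpha-catenin, which connects the complex to actin filaments, while p120-catenin binds nearer the membrane and slows the uptake and breakdown of the cadherin. E-cadherin and N-cadherin bind the same catenins, so an epithelial to mesenchymal transition (EMT), in which cells lose epithelial adhesion and gain mesenchymal traits, exchanges the cadherin on a shared set of partners. Beta-catenin is also the coactivator of TCF/LEF factors in Wnt signalling, and a destruction complex breaks down the part that is not bound. Only mRNA was measured, and protein amount, phosphorylation and location were not.

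The cells are HCC827, an EGFR-mutant line derived from a human adenocarcinoma of the lung, in 6 groups of 3 arrays. Parental cells are the control of cells given the growth factor TGFB1. Cells with the lentiviral vector pLX303 carrying lacZ are the control of SNAIL cells, in which a lentivirus overexpresses the EMT transcription factor SNAIL (gene SNAI1) with a V5 tag. The SNAIL titles name lacZ as well, as pLX303-lacZ SNAIL-V5. Cells with the vector pLKO1 carrying a non-target hairpin (shNT) are the control of cells with a pLKO1 hairpin RNA against CDH1 (shCDH1). TGFB1 lasted 30 days by the sample labels, whereas the design text states 72 hours and a dose of 10 ng/mL, and which duration holds is not settled here. Whether the virus lines were clones or pools, and how many hairpins were used, was not given in the sources used here. Within each group the titles count arrays from 1 to 3, while the descriptions use 1 for a pair of arrays and 2 for the last. Neither says that they came from separate cultures, so the p-values measure the spread between these arrays, which may be technical.

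Values are normalized log2 intensities, and the median of all of them was 6.82. A difference is given on the log2 scale with its standard error, from 1 limma model over all 18 arrays, and a probe was called at a Benjamini-Hochberg adjusted p below 0.05 over all 47321 probes. Levels of different probes cannot be set against each other, and an intensity near the array-wide median has its fold understated by the background offset. Median raw intensity was lowest on TGFB1 arrays 1 and 2 (154 and 152), against 172 to 236 on the other 16. The summed linear level of 6 epithelial markers was 46775 to 48488 in parental, 29779 to 31806 in TGFB1, 48477 to 50480 in lacZ, 3513 to 4116 in SNAIL, 42702 to 48425 in shNT and 20826 to 23644 in shCDH1 cells. CDH1 is among these markers, so part of the fall in SNAIL and shCDH1 cells is its own. The sum of 7 mesenchymal markers was 1802 to 1984, 10328 to 12141, 7787 to 8164, 22931 to 24547, 1759 to 2448 and 11221 to 12620 in the same order. Such a sum can rest on few bright genes: 4, 5, 2, 6, 3 and 4 of the 7 had a mean above the array-wide median. Against their own controls, 5 of them rose under TGFB1, 4 in SNAIL and 2 in shCDH1 cells, and 0 fell. Their median difference in shCDH1 cells was -0.05. All 6 epithelial markers had a mean above the array-wide median in every group, SNAIL cells included, and no marker here is specific to adenocarcinoma. Sums ran from 422 to 534 for 5 endothelial and from 5428 to 8699 for 5 haematopoietic markers, the latter highest in shCDH1 cells. The part of these markers in the results was not tested.

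The promoters are shown because SNAIL is known to bind E-box motifs and to repress genes that carry them. The windows below hold the 250 bases before the RefSeq start on GRCh38.p14, 5′ to 3′ on the gene's strand, with the motif CAGGTG or its reverse complement CACCTG in capitals. They belong to CTNNA1 (the upstream of 4 annotated windows, chr5:138753175-138753424, plus strand), CTNNB1 (its only window, chr3:41199255-41199504, plus strand) and JUP (chr17:41785977-41786226, minus strand). JUP encodes plakoglobin, the close relative of beta-catenin, and serves as a comparison below.
CTNNA1: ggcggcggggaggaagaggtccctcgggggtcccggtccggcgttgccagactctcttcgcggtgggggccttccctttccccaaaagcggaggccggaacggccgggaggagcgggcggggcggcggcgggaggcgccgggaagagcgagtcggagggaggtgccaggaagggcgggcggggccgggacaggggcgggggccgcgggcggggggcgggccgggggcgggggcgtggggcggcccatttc
CTNNB1: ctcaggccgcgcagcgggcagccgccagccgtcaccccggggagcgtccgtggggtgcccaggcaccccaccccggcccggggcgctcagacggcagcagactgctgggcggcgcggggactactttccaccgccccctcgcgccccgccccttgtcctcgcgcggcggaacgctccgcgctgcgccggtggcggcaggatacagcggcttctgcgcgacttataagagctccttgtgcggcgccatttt
JUP: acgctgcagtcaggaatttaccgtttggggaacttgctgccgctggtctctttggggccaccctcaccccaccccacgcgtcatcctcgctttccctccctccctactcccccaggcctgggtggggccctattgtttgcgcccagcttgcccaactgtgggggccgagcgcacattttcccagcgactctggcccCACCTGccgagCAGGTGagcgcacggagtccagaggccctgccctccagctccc
Neither window shown of CTNNA1 and CTNNB1 holds the motif, and the other 3 CTNNA1 windows do not hold it either. Windows of CTNND1 and CDH1 were not analysed here. The JUP window holds it at 2 places, starting 54 and 43 bases before the start, and the other JUP window does not hold it. Of 35116 promoter windows of this length, 17.5% held the motif at least 1 time and 2.5% held it 2 or more times. A match describes these letters and is not a measured binding site, and its absence says only that the letters are not in the window.

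The cadherins set the scale against which the catenins are read. CDH1 (probe ILMN_1770940) stood at 13.04, 13.06 and 13.01 in parental cells and at 12.78, 12.61 and 12.67 under TGFB1, at 13.15, 13.13 and 13.09 in lacZ and 7.55, 7.50 and 7.46 in SNAIL cells, and at 13.02, 13.04 and 12.94 in shNT and 8.82, 8.84 and 8.14 in shCDH1 cells. All 9 control arrays lay above all 9 treated ones. CDH1 fell 49.0-fold in SNAIL cells (log2 difference -5.62 ± 0.12, adjusted p = 2.70e-24) and 21.1-fold in the cells with a hairpin against it (-4.40 ± 0.12, adjusted p = 7.83e-22). Under TGFB1 it was 1.27-fold lower (-0.35 ± 0.12, adjusted p = 0.0434), a call that ended when any 1 of the parental, TGFB1 or lacZ arrays was left out (adjusted p from 0.0511 to 0.153) and in 7 other alternatives (adjusted p up to 0.255).

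CDH2 (ILMN_1779228) stood at 6.41, 6.26 and 6.39 in parental cells and at 11.23, 11.20 and 11.06 under TGFB1. It stood at 10.55, 10.68 and 10.45 in lacZ and at 11.47, 11.47 and 11.44 in SNAIL cells. In shNT cells it stood at 8.31, 8.07 and 8.14, and in shCDH1 cells at 12.90, 12.84 and 12.73. CDH2 rose 28.0-fold with TGFB1, 25.1-fold with the CDH1 hairpin and 1.87-fold with SNAIL, whose lacZ control already stood 18.4-fold above parental cells. Parental CDH2 lay below the array-wide median and its detection was not assessed, so the folds against parental cells depend on the background correction: across corrections the log2 difference ran from 3.46 to 5.56 under TGFB1 and from 3.24 to 4.94 in lacZ cells. SNAIL cells therefore compare loss of CDH1 with little further gain of CDH2, TGFB1 cells compare gain of CDH2 with CDH1 largely kept, and shCDH1 cells compare both. The SNAI1 probe (ILMN_1758086) was not called in any of these comparisons, with -0.14 ± 0.14 in SNAIL cells (adjusted p = 0.604). Its position relative to the expressed construct was not used here, and a probe outside it would check nothing about the construct.

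**Figure D1:**
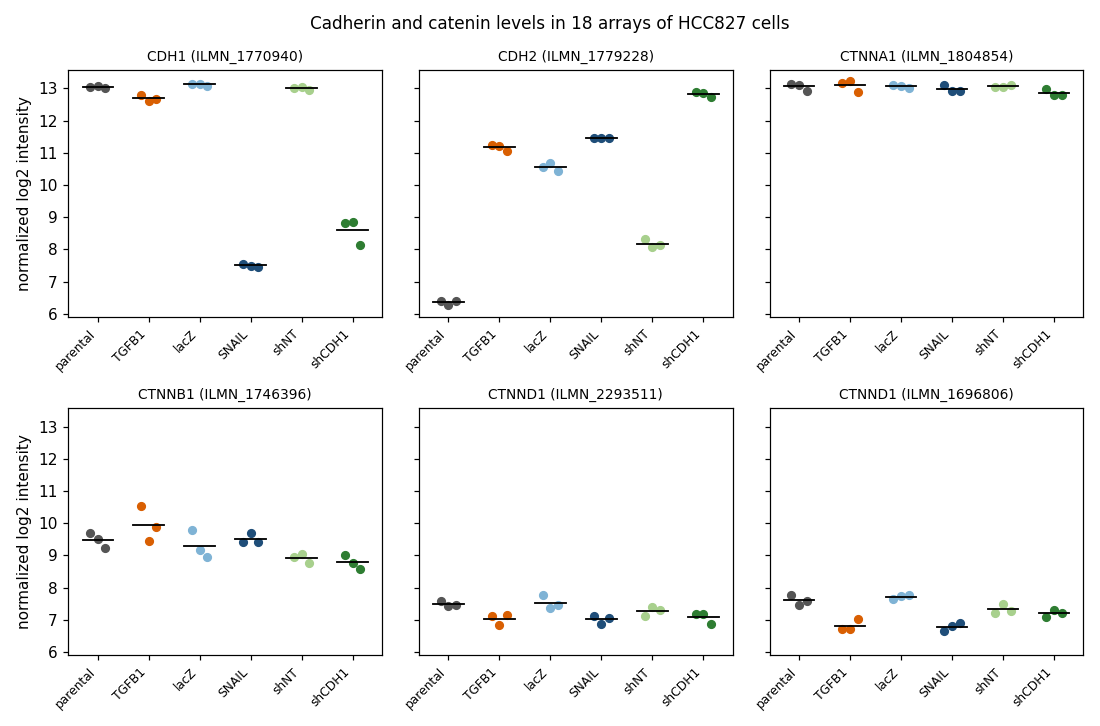
Normalized log2 intensity (vertical axis, shared by all panels) of CDH1, CDH2, CTNNA1, CTNNB1 and CTNND1 (2 probes) in the 6 groups. Points are arrays, 3 per group, and lines are group means. CDH1 and CDH2 span 5.62 and 6.47 log2 units between group means, while the catenin probes shown span 0.24 to 1.16.

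Of the 14 catenin probes, 3 were called under TGFB1, 2 in SNAIL cells and 1 in shCDH1 cells, all lower. Over all probes 20.4%, 24.1% and 22.7% were called in these comparisons, so the counts of catenin probes were near or below the background. The median difference of the 14 probes was 0.02, 0.03 and -0.09, against -0.00, -0.00 and 0.01 over all probes. At an unadjusted p below 0.05 the counts were 7, 2 and 4. The calls were spread unevenly over the genes: CTNND1 gave all 5 calls under TGFB1 and SNAIL, CTNNA1 gave the call in shCDH1 cells, and CTNNB1 gave none.

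CTNNA1, the actin-linking catenin, kept a level close to 13 in every group. Its brighter probe (ILMN_1804854) read 13.14, 13.12 and 12.93 in parental cells, 13.16, 13.23 and 12.88 under TGFB1, 13.11, 13.07 and 13.00 in lacZ, 13.09, 12.93 and 12.90 in SNAIL, 13.04, 13.03 and 13.11 in shNT, and 12.97, 12.78 and 12.80 in shCDH1 cells. All shCDH1 arrays lay below all shNT and all lacZ arrays, while the TGFB1 and SNAIL arrays overlapped their controls. The order of the means ran from TGFB1 through parental, shNT, lacZ and SNAIL to shCDH1, a range of 0.24, and no neighbours in it differed by the test (adjusted p from 0.346 to 0.999), but its ends did (0.24 ± 0.09, adjusted p = 0.0358). The difference was 0.03 ± 0.09 under TGFB1 (95% interval -0.15 to 0.21), -0.09 ± 0.09 in SNAIL (-0.26 to 0.09) and -0.21 ± 0.09 in shCDH1 cells (-0.39 to -0.03, adjusted p = 0.0821).

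The other CTNNA1 probe (ILMN_2230902) read 12.86, 12.79 and 12.94 in shNT and 12.56, 12.55 and 12.48 in shCDH1 cells. The groups did not overlap, and CTNNA1 was 1.26-fold lower on this probe in shCDH1 cells (-0.33 ± 0.09, adjusted p = 0.00367). Without between-array normalization, or with only a floor and log2, this call was lost (adjusted p of 0.188 and 0.304). In SNAIL cells it read 12.52, 12.76 and 12.64 against 12.81, 12.81 and 12.79 in lacZ cells, and this difference of -0.17 ± 0.09 did not pass the test (adjusted p = 0.194). Under TGFB1 it differed by 0.06 ± 0.09 (adjusted p = 0.709). The shCDH1 level on this probe was also lower than in parental (by 0.23, adjusted p = 0.0482), lacZ (by 0.28, adjusted p = 0.0180) and TGFB1 cells (by 0.30, adjusted p = 0.00835). The SNAIL minus shCDH1 difference of 0.11 did not pass the test (adjusted p = 0.413). CDH1 fell 21.1-fold in the same shCDH1 cells, so the CTNNA1 difference is small on the scale of the cadherins.

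CTNNB1, which binds the far end of the cadherin tail and is the Wnt coactivator, has 2 probes well above the array-wide median. The brighter (ILMN_1746396) read 9.69, 9.51 and 9.24 in parental cells, 10.53, 9.44 and 9.88 under TGFB1, 9.79, 9.17 and 8.96 in lacZ, 9.42, 9.70 and 9.42 in SNAIL, 8.95, 9.03 and 8.76 in shNT, and 9.02, 8.76 and 8.59 in shCDH1 cells. Each treated group overlapped its control. ILMN_1757350 read 9.72, 9.37 and 9.15 in parental cells, 10.20, 9.51 and 9.72 under TGFB1, 9.74, 9.30 and 9.10 in lacZ, 9.50, 9.45 and 9.44 in SNAIL, 8.83, 8.85 and 8.59 in shNT, and 8.90, 8.94 and 8.67 in shCDH1 cells. The arrays' deviations from their group means correlated between these probes at r = 0.92 over 18 arrays, which share RNA and hybridization, so the spread within groups is common to both. On ILMN_1757350 array 1 lay above its group mean and array 3 below it in every group. On ILMN_1746396 array 3 also lay below its group mean in every group.

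Neither bright CTNNB1 probe was called in the 3 main comparisons. Under TGFB1 the differences were 0.47 ± 0.20 (95% interval 0.06 to 0.88, adjusted p = 0.109) and 0.40 ± 0.17 (0.06 to 0.74, adjusted p = 0.0980). Both passed with TGFB1 array 2 left out (0.72, adjusted p = 0.0109, and 0.55, adjusted p = 0.0311) and against all 3 control groups together (0.72, adjusted p = 0.00116, and 0.63, adjusted p = 0.000643). Both also passed with the title number as a replicate block. ILMN_1757350 also passed without parental array 1 (0.55, adjusted p = 0.0279). The values shrank to 0.18 (adjusted p = 0.642) and 0.20 (adjusted p = 0.525) without TGFB1 array 1, to 0.078 and 0.014 without between-array normalization, and to 0.037 and -0.029 with a floor in place of background correction. In SNAIL cells the differences were 0.21 ± 0.20 (-0.20 to 0.62) and 0.08 ± 0.17 (-0.26 to 0.42), and in shCDH1 cells -0.12 ± 0.20 (-0.53 to 0.29) and 0.08 ± 0.17 (-0.26 to 0.42).

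Both pLKO1 groups were lowest on both bright probes: shNT cells lay -0.57 ± 0.20 (adjusted p = 0.0592) and -0.66 ± 0.17 (adjusted p = 0.00660) from parental cells, with no overlap of arrays on either probe, and shCDH1 cells lay -0.69 (adjusted p = 0.0110) and -0.58 (adjusted p = 0.0103) from them. The shNT call on ILMN_1757350 ended without parental array 1 (-0.50, adjusted p = 0.0747), and the shNT difference on ILMN_1746396 passed in 15 of 34 alternatives (adjusted p down to 0.0169). CDH1 differed by -0.04 ± 0.12 between shNT and parental cells (adjusted p = 0.920), so CTNNB1 was lower there with CDH1 at its parental level, while CDH2 was 3.52-fold higher. On ILMN_1746396 no neighbours in the order TGFB1, SNAIL, parental, lacZ, shNT, shCDH1 differed by the test, but its ends differed by 1.16 ± 0.20 (adjusted p = 3.70e-05). On ILMN_1757350 the last places were exchanged, and of its neighbours lacZ and shCDH1 differed (0.54, adjusted p = 0.0165).

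The other 5 CTNNB1 probes lay near or below the array-wide median, with means over all arrays of 6.06 to 6.94. In the main setting none was called against its own control or in the virus controls. Under TGFB1 their differences ran from -0.11 to 0.42, and 2 of them (ILMN_1651617, 0.42 ± 0.18, and ILMN_1808436, 0.30 ± 0.14) had an adjusted p of 0.109 and 0.149. These 2 stayed uncalled in 30 and 31 of 32 alternatives and passed in the rest (adjusted p down to 0.0345 and 0.0403). With the bright probes, 4 of the 7 CTNNB1 probes had an unadjusted p below 0.05 under TGFB1, all higher. ILMN_1651617 was higher under TGFB1 than in lacZ cells (0.53, adjusted p = 0.0412), and ILMN_1808436 was higher than in shNT cells (0.38, adjusted p = 0.0399). In SNAIL and shCDH1 cells the 5 ran from -0.09 to 0.29 and from -0.09 to 0.15.

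**Figure D2:**
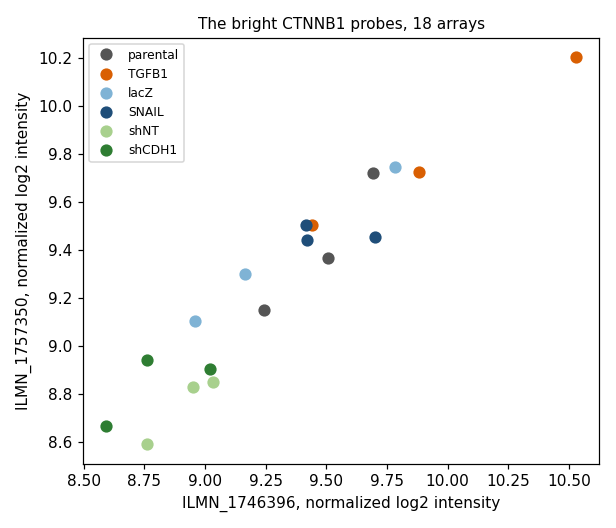
The 2 bright CTNNB1 probes against each other in normalized log2 intensity, 1 point per array and 1 colour per group. All 6 pLKO1 arrays (shNT and shCDH1) sit at the low end, at 8.59 to 9.03 on ILMN_1746396, beside lacZ array 3 at 8.96, and TGFB1 array 1 is the highest point at 10.53.

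CTNND1, the catenin that keeps cadherins at the surface, was the only member with calls under TGFB1 and SNAIL. On ILMN_1696806 it read 7.78, 7.46 and 7.59 in parental and 6.73, 6.73 and 7.02 in TGFB1 cells, 7.64, 7.74 and 7.76 in lacZ and 6.65, 6.82 and 6.90 in SNAIL cells, and 7.22, 7.49 and 7.27 in shNT and 7.08, 7.30 and 7.22 in shCDH1 cells. The TGFB1 and SNAIL arrays lay below every array of their controls, and the shCDH1 arrays overlapped theirs. CTNND1 fell 1.72-fold under TGFB1 (-0.79 ± 0.12, adjusted p = 1.36e-05) and 1.90-fold in SNAIL cells (-0.93 ± 0.12, adjusted p = 6.67e-07). Both calls held in all 33 alternative settings run for this probe. Without the dim TGFB1 arrays 1 and 2 the TGFB1 value was -0.59 (adjusted p = 0.0229), resting on 1 array assumed to vary like the other groups.

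In shCDH1 cells the same CTNND1 probe differed from shNT by -0.12 ± 0.12 (95% interval -0.38 to 0.13, adjusted p = 0.595). Against parental cells the shCDH1 difference was -0.41 (adjusted p = 0.0147), and shNT cells themselves lay -0.29 ± 0.12 from parental cells (adjusted p = 0.141). The order of the ILMN_1696806 means ran lacZ, parental, shNT, shCDH1, TGFB1 and SNAIL, and of its neighbours only shCDH1 and TGFB1 differed by the test (0.38, adjusted p = 0.0236). Between lacZ and parental cells, where CDH2 was 18.4-fold higher and CDH1 differed by 0.09 ± 0.12, CTNND1 differed by 0.10 ± 0.12 (-0.15 to 0.36).

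ILMN_2293511, the CTNND1 probe with the highest mean, had a mean of 7.24 over all arrays, as ILMN_1696806 had to 2 decimals. It read 7.60, 7.43 and 7.48 in parental and 7.12, 6.85 and 7.14 in TGFB1 cells, 7.78, 7.36 and 7.47 in lacZ and 7.12, 6.88 and 7.05 in SNAIL cells, and 7.12, 7.42 and 7.31 in shNT and 7.19, 7.19 and 6.87 in shCDH1 cells. As on the other probe, TGFB1 and SNAIL arrays did not overlap their controls. The falls were 1.38-fold (-0.47 ± 0.13, adjusted p = 0.0103) and 1.43-fold (-0.52 ± 0.13, adjusted p = 0.00344), and the shCDH1 difference was -0.20 ± 0.13 (-0.48 to 0.07, adjusted p = 0.345). The shCDH1 mean on this probe, 7.08, stood beside 7.04 under TGFB1 and 7.02 in SNAIL cells, and it was lower than in parental (-0.42, adjusted p = 0.0186) and lacZ cells (by 0.46, adjusted p = 0.0114). The TGFB1 call ended without parental array 1 (adjusted p = 0.0531), without TGFB1 array 2 (0.0811) and without both dim arrays (0.281), and the SNAIL call ended with a floor and log2 alone (0.109).

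ILMN_1651944, a further CTNND1 probe, read 6.61, 6.95 and 7.45 in parental, 6.42, 6.26 and 6.79 in TGFB1, 6.86, 7.13 and 7.23 in lacZ, 6.72, 6.74 and 7.13 in SNAIL, 7.79, 7.64 and 7.52 in shNT and 7.20, 7.28 and 7.39 in shCDH1 cells. It fell under TGFB1 (-0.51 ± 0.17, adjusted p = 0.0269) although the arrays overlapped, and that call ended without parental array 2 or 3, without TGFB1 array 1 or 2, with arrays of 1 description number averaged, and without both dim arrays (adjusted p up to 0.713). Its SNAIL difference was -0.21 ± 0.17 and its shCDH1 difference -0.36 ± 0.17 (adjusted p = 0.142), although all shCDH1 arrays lay below all shNT arrays. In shNT cells it was 1.57-fold above parental cells (0.65 ± 0.17, adjusted p = 0.00758), opposite in sign to the 2 brighter CTNND1 probes (-0.29 and -0.22), and this call ended without parental array 1 (0.45, adjusted p = 0.100), without between-array normalization (0.51, adjusted p = 0.137), with a floor and log2 (0.22, adjusted p = 0.512) and with arrays of 1 description number averaged (0.50, adjusted p = 0.112). The last probes, ILMN_1663159 and ILMN_1807510, lay at 5.86 to 6.89, mostly below the array-wide median, and were not called in any comparison. Their differences were 0.37 and -0.03 under TGFB1, 0.05 and 0.07 in SNAIL and 0.27 and 0.28 in shCDH1 cells. On ILMN_1663159 all TGFB1 arrays lay above all parental arrays, opposite to the 3 called probes, without passing the test (adjusted p = 0.206).

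CTNND1 is known to be spliced into several forms, and the probes may read different ones: ILMN_1696806 is annotated to another RefSeq transcript record than the other 4 CTNND1 probes. The 2 brightest probes had levels that correlated at r = 0.81 over the 18 arrays but deviations from group means that correlated at only 0.19, so they share the group pattern rather than the spread within groups. ESRP1, an epithelial splicing regulator, fell in all 3 comparisons (-1.41, -2.80 and -2.31). Of the other regulators on that list of 3, RBFOX2 was higher under TGFB1 (0.64, adjusted p = 7.16e-05). The part of splicing in the CTNND1 differences was not tested.

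**Figure D3:**
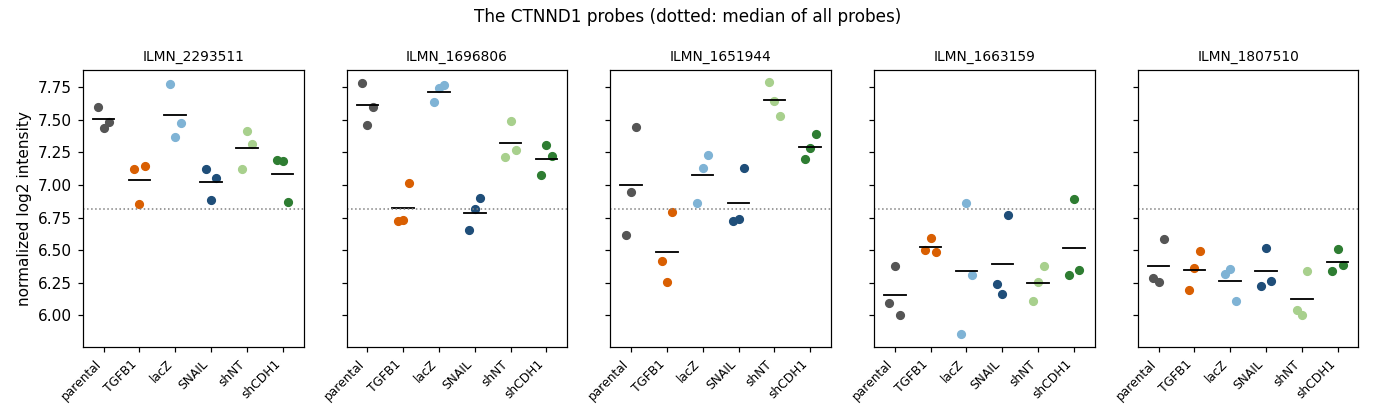
The 5 CTNND1 probes, from the highest to the lowest mean, in normalized log2 intensity by group, with 1 point per array and a line at each group mean. The dotted line is the median of all probes, 6.82. On the 2 probes at the left, TGFB1 and SNAIL arrays lie below all arrays of their controls, and on the 2 at the right no comparison was called.

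The effects of the 3 routes were compared directly. Between TGFB1 and SNAIL no catenin probe differed, with 0 of 14 called and 0 at an unadjusted p below 0.05, while 18.4% of all probes were called. For CTNND1 ILMN_1696806 the TGFB1 effect minus the SNAIL effect was 0.14 ± 0.18 (95% interval -0.22 to 0.50), and for ILMN_2293511 it was 0.05 ± 0.19 (-0.33 to 0.44). CDH1 differed between the same routes by 5.27 ± 0.17 (adjusted p = 1.51e-19). The CDH1 effects of TGFB1 and SNAIL were thus far apart, while those on CTNND1 lay within the intervals given. On ILMN_1696806 the TGFB1 and SNAIL means, 6.82 and 6.79, lay beside the array-wide median of 6.82. A further difference between the routes could be missed at that level.

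TGFB1 minus shCDH1 gave 2 catenin calls, against 19.6% of all probes. CTNND1 ILMN_1696806 fell further under TGFB1 by 0.66 ± 0.18 (adjusted p = 0.00627), a call lost without both dim TGFB1 arrays (-0.47, adjusted p = 0.177), and CTNNA1 ILMN_2230902 was 0.40 ± 0.12 higher (adjusted p = 0.0176). The CTNNA1 call ended in 8 of 31 alternatives, among them leaving out parental array 3, TGFB1 array 1 or 2, or shNT array 3 (adjusted p from 0.0532 to 0.0692). SNAIL minus shCDH1 gave 1 call, against 20.6%: CTNND1 ILMN_1696806 fell further in SNAIL cells by 0.80 ± 0.18 (adjusted p = 0.000895). With no correction beyond a floor that call was lost (adjusted p = 0.0509). On ILMN_2293511 neither difference was called (-0.26 ± 0.19, adjusted p = 0.408, and -0.31 ± 0.19, adjusted p = 0.302), so the CTNND1 differences of effects rest on 1 probe and use shNT as the control. Set directly against shCDH1 cells, ILMN_1696806 was lower under TGFB1 (-0.38, adjusted p = 0.0236) and in SNAIL cells (-0.41, adjusted p = 0.0119). The same differences were -0.80 (adjusted p = 0.000380) and -0.43 (adjusted p = 0.0592) on ILMN_1651944, and -0.04 and -0.06 on ILMN_2293511, neither called.

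**Figure D4:**
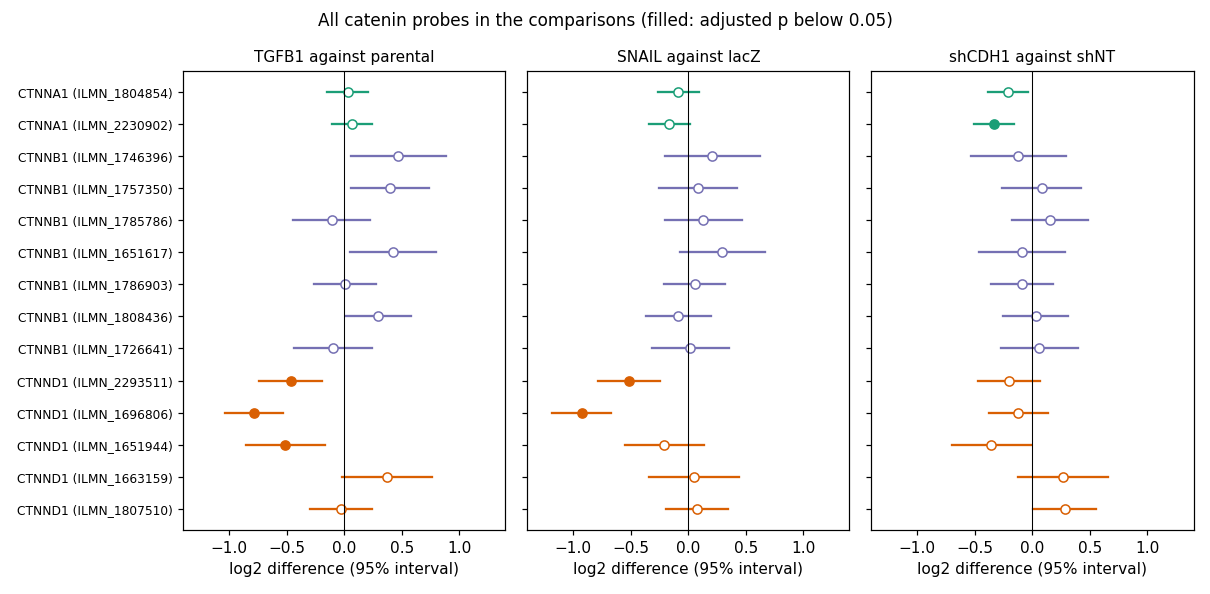
Log2 difference (horizontal axis) of all 14 catenin probes under TGFB1, in SNAIL and in shCDH1 cells, each against its own control, with 95% intervals. Filled points were called: 3 CTNND1 probes under TGFB1, 2 in SNAIL cells and 1 CTNNA1 probe in shCDH1 cells.

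The control virus lines were compared with parental cells to see how far they differed in the catenins. Infection, vector and insert or hairpin cannot be told apart in these comparisons. In lacZ cells 0 of 14 catenin probes were called by limma, 0 had an unadjusted p below 0.05, and 7.87% of all probes were called. All 14 differences lay between -0.18 and 0.18. In shNT cells 2 were called (CTNND1 ILMN_1651944 higher and CTNNB1 ILMN_1757350 lower, above), against 14.0% of all probes, and CTNNA1 differed by -0.00 ± 0.09 and 0.10 ± 0.09.

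JUP, whose product plakoglobin binds the same place on cadherin tails as beta-catenin and also joins desmosomes, fell with CDH1 in SNAIL and shCDH1 cells. ILMN_1733811 read 12.09, 11.70 and 11.84 in lacZ and 8.24, 8.10 and 8.19 in SNAIL cells, and 12.53, 12.29 and 12.46 in shNT and 9.61, 9.47 and 8.85 in shCDH1 cells. The groups lay far apart: JUP fell 13.0-fold (-3.70 ± 0.14, adjusted p = 5.71e-19) and 8.67-fold (-3.12 ± 0.14, adjusted p = 4.11e-17). Under TGFB1 it differed by -0.33 ± 0.14 (adjusted p = 0.0930). The other 2 JUP probes were called lower in all 3 comparisons, with -0.52, -1.82 and -1.98 on ILMN_1741970 under TGFB1, in SNAIL and in shCDH1 cells, and with -0.42 under TGFB1 and -1.22 in shCDH1 cells on ILMN_2366864, which was 2.00-fold lower in SNAIL cells.

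The remaining genes of the pathway were read by list, with 1 probe per gene. Over all 20046 genes 14.3% rose and 14.4% fell under TGFB1, 18.5% and 15.9% in SNAIL cells, and 16.8% and 15.2% in shCDH1 cells. A further list held 12 other genes that are catenins by family or only by name, JUP included. Of these, 0 rose and 4 fell under TGFB1, 0 and 5 in SNAIL, and 2 and 5 in shCDH1 cells, with medians of -0.13, -0.24 and -0.19 against 0.00, 0.01 and 0.01 over all genes. The listed genes that fell in all 3 comparisons were the desmosomal plakophilins PKP2 (-1.33, -0.93 and -2.20) and PKP3 (-0.82, -1.81 and -1.18) and CTNNBIP1 (-0.69, -0.73 and -1.36), which encodes an inhibitor of beta-catenin binding to TCF factors. PKP4, which encodes a p120 relative, fell in SNAIL and shCDH1 cells (-0.64 and -0.50). CTNNAL1, an alpha-catenin relative, fell under TGFB1 (-0.76) and rose in shCDH1 cells (0.44). CTNNBL1, a beta-catenin-like gene, rose in shCDH1 cells (0.84). The other alpha-catenins CTNNA2 and CTNNA3, the p120 relatives CTNND2 and ARVCF, and PKP1 were not called.

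**Figure D5:**
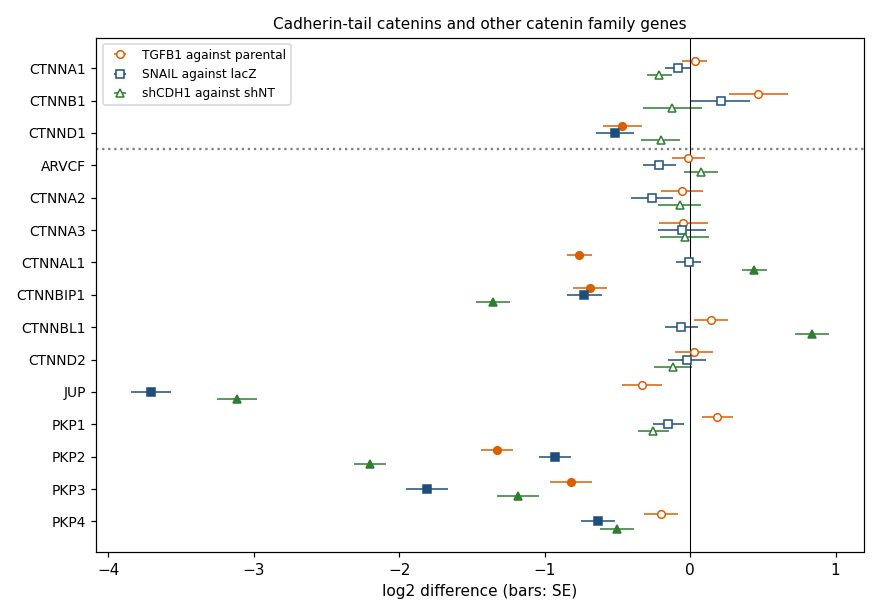
Log2 difference with SE (horizontal axis) of the 3 cadherin-tail catenins, above the dotted line, and 12 other genes that are catenins by family or name, 1 probe per gene (highest mean), in 3 comparisons. Filled symbols were called. JUP lies at -3.70 in SNAIL and -3.12 in shCDH1 cells, while CTNNA1, CTNNB1 and CTNND1 all lie between -0.52 and 0.47 on the probes shown. CTNND1 ILMN_1696806, not shown, lies at -0.79 under TGFB1 and -0.93 in SNAIL cells. The CTNND1 probes lie nearer the array-wide median than JUP, where folds are understated.

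Among 6 measured cadherins, 2 rose and 2 fell under TGFB1, 2 and 3 in SNAIL, and 2 and 2 in shCDH1 cells. CDH3 (P-cadherin) fell in all (-1.51, -5.94 and -6.13). CDH6, a cadherin of developing kidney and neural tissue, rose under TGFB1 and in shCDH1 cells (4.21 and 2.98) and fell in SNAIL cells (-2.90), and CDH11, known from mesenchymal cells, rose in SNAIL cells (3.66). The CDH6 fall was measured against a raised lacZ control and did not pass the test against parental cells (-0.11, adjusted p = 0.691).

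Of 11 actin linkers that work at alpha-catenin, 4 rose and 3 fell under TGFB1, 3 and 3 in SNAIL, and 0 and 4 in shCDH1 cells. ACTN1 (alpha-actinin, an actin crosslinker) rose under TGFB1 (1.17 ± 0.10) and fell in shCDH1 cells (-0.99 ± 0.10), ZYX (zyxin) rose under TGFB1 and in SNAIL cells (1.53 and 0.64), LIMA1 (EPLIN, an actin bundler that binds alpha-catenin) fell under TGFB1 and in shCDH1 cells (-0.55 and -0.88), and DIAPH1 (a formin) fell in all 3 comparisons (-0.34, -0.74 and -0.83). Of 11 partners of p120 and of cadherin trafficking, 5 rose and 1 fell, 4 and 2, and 5 and 3. DAB2, an endocytic adaptor, rose in all 3 (1.87, 4.52 and 2.48), as did the kinase FYN (1.70, 1.16 and 1.00), while CBLL1 (Hakai, a ubiquitin ligase of E-cadherin) fell in SNAIL and rose in shCDH1 cells (-0.75 and 0.80).

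On the beta-catenin side, 4 of 14 destruction complex genes rose and 2 fell under TGFB1, 5 and 0 in SNAIL, and 4 and 1 in shCDH1 cells. AXIN2, a scaffold of the complex and itself a Wnt target, rose in SNAIL (2.73 ± 0.15) and shCDH1 cells (0.75 ± 0.15), and the kinase CSNK1A1 rose in all 3 (1.21, 0.87 and 0.63), though not against parental cells for shCDH1 (-0.19, adjusted p = 0.350) and not in SNAIL cells with all its probes averaged (0.18, adjusted p = 0.347). Of 13 nuclear partners, 3 rose and 2 fell, 5 and 1, and 3 and 3. PYGO1, a coactivator, rose in all (1.76, 1.34 and 1.22), and TLE4, a corepressor, rose in SNAIL and shCDH1 cells (4.60 and 2.11).

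Of 17 measured beta-catenin/TCF target genes, 6 rose and 3 fell under TGFB1, 7 and 3 in SNAIL, and 7 and 3 in shCDH1 cells, with medians of 0.18, 0.29 and 0.12. TNFRSF19 rose in all 3 (2.51, 1.72 and 2.18). NKD2, which encodes a Wnt inhibitor, rose under TGFB1 and in shCDH1 cells (2.30 and 1.21) and fell in SNAIL cells (-1.46), and ASCL2 fell under TGFB1 and in shCDH1 cells (-1.43 and -1.18). DKK1, a secreted Wnt inhibitor, rose in SNAIL and shCDH1 cells (1.95 and 0.52), and MYC rose under TGFB1 and in shCDH1 cells (1.08 and 1.16). Genes of these lists thus moved in both directions while CTNNB1 mRNA itself was not called in the main setting. AXIN2 and LEF1 stand in more than 1 list.

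The genes most like each catenin were ranked by Pearson r over the 6 group means among 9496 genes above the median level that varied by at least 0.5 log2 units, as a description over 6 points that share their arrays. For CTNNA1 they were SLCO2A1 (r = 0.998), DNAJC10, PSME4, STK26 and S100A16, with 64 genes at 0.95 or above. Likeness is of pattern, not of size: STK26 varied by 3.58 log2 units and CTNNA1 by 0.24. For CTNNB1 they were ACBD6 (r = 0.984), SP1, CDC42SE1, UCN and ABT1, with 35 such genes. For CTNND1 on ILMN_2293511 they were LGR4 (r = 0.991), SLC35F5, CERKL, ORC4 and RALGPS2, with 17.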

How the data were processed

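Biotinylated cRNA from 18 RNA samples was read on Illumina bead arrays, per the labels' protocols. The deposited table holds 47323 probes in linear intensity that the authors had not log transformed or normalized between arrays, as its medians and ranges show; scanner and software are not given in the sources used here. Detection p-values were not used, so detection was not assessed. Precision is limited by having 3 arrays a group.

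After 2 probes with a value of 0 were left out, background was corrected by normexp with an offset of 50, and log2 values were quantile normalized, in limma 3.58.1 in R 4.3.3. Symbols came from the platform annotation: 30113 probes had 1 symbol, 8 several and 17200 none. All 3 catenin symbols matched RefSeq (GRCh38.p14), which also gave the promoters. One limma model of 6 group means (12 residual degrees of freedom, intensity trend) gave 5 comparisons and 3 differences of effects, two-sided, called at an adjusted p below 0.05, and was tested on simulated data. Changes of 0.5 log2 units were recovered in 26%, 35% and 31% of cases for TGFB1, SNAIL and shCDH1, and changes of 1 in 94%, 96% and 96%. The simulation changed only 200 probes, fewer than were called here, which makes its threshold stricter. A difference that was not called may still be present.

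The members and lists were chosen with earlier results of these data known. Named genes were all catenin probes, CDH1, CDH2 and SNAI1, and up to 4 called genes with the largest difference per list and comparison, of which a part is printed. Where such a gene was called in a further comparison, that value is given too. Uncalled family members and the other JUP probes are named for completeness, after their values were seen. Of the listed genes, CDH4, CDH13, AFDN, TCF7 and EPHB2 were not analysed here, and some others are not reported here. Alternatives changed background, normalization, filter, probe rule, moderation, blocks, controls and arrays. Equally numbered arrays of a comparison had deviations from their group means that correlated at -0.10 to 0.19 over all probes. The main model did not use the numbers to pair arrays. It therefore leaves in the error any spread that follows the number, as on the bright CTNNB1 probes.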

Additional observations from a re-analysis of the deposited data

Results flagged for a closer look

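Each value below is a difference between the effects of 2 routes that passed the limma test of that difference, with 3 arrays per group. For CTNND1 (ILMN_1696806) the TGFB1 effect minus the shCDH1 effect was -0.66 ± 0.18 (adjusted p = 0.00627) and the SNAIL effect minus the shCDH1 effect was -0.80 ± 0.18 (adjusted p = 0.000895). For CTNNA1 (ILMN_2230902) the TGFB1 effect minus the shCDH1 effect was 0.40 ± 0.12 (adjusted p = 0.0176).

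For CDH1 the TGFB1 effect minus the SNAIL effect was 5.27 ± 0.17, TGFB1 minus shCDH1 was 4.05 ± 0.17 and SNAIL minus shCDH1 was -1.22 ± 0.17. For CDH2 the TGFB1 minus SNAIL difference was 3.90 ± 0.15 and the SNAIL minus shCDH1 difference was -3.75 ± 0.15, each of which holds the raised level of the lacZ control. For JUP (ILMN_1733811) the TGFB1 minus SNAIL difference was 3.37 ± 0.19, the TGFB1 minus shCDH1 difference was 2.78 ± 0.19 and the SNAIL minus shCDH1 difference was -0.59 ± 0.19. The last had an adjusted p of 0.0293 and was not called on the other 2 JUP probes (0.16 and 0.22).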

How the results depend on the processing

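Of 3584 catenin probe values under the alternatives, 3518 kept their side of the threshold, 27 were no longer called, 38 were newly called and 1 was newly called with the opposite sign. Among the 3518 the sign changed in 172, none called in either setting. These include CTNND1 ILMN_1651944 in shCDH1 cells against parental cells (0.29, from -0.36) and, with a floor under TGFB1, CTNND1 ILMN_1663159 (-0.12, from 0.37) and CTNNB1 ILMN_1651617 (-0.084, from 0.42) and ILMN_1808436 (-0.14, from 0.30). The counts of called catenin probes (3, 2 and 1 in the main comparisons and 2 in shNT cells) moved as follows. Without normalization between arrays they were 0 in shCDH1 cells and 1 for TGFB1 minus shCDH1. With a floor and log2 they were 1 in SNAIL cells, 0 in shCDH1 cells, 1 for TGFB1 minus shCDH1 and 0 for SNAIL minus shCDH1. Keeping probes above the median gave 2 in shCDH1 cells, and dropping the intensity trend gave 1 for TGFB1 minus shCDH1. With 1 probe per gene, which leaves 3 to test, counts were 1 under TGFB1, 1 in SNAIL, 0 in shCDH1 and 1 in shNT cells, and 0 for both differences from shCDH1. With all probes of a gene averaged they were 1, 1 and, in shNT cells, 0, with 1 for TGFB1 minus shCDH1 and 0 for SNAIL minus shCDH1. TGFB1 against all 3 control groups gave 7, and shCDH1 against parental cells gave 5. Leaving out 1 array in turn gave 1 to 2 in shCDH1 cells, 0 to 3 in shNT cells and 1 to 3 for TGFB1 minus shCDH1. The 0 came without parental array 1, the lone 1 for TGFB1 minus shCDH1 without parental array 3, TGFB1 array 1 or shNT array 3, and the 2 in shCDH1 cells without TGFB1 array 3 or shCDH1 array 1. Leaving out both dim TGFB1 arrays, chosen after the medians were seen, gave 1 under TGFB1 and 0 for TGFB1 minus shCDH1.

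With the title number as a replicate block the counts were 5 under TGFB1 and 2 in shCDH1 cells, and with the description number as a block 2 in shCDH1 cells. The probes that the title number added under TGFB1 were the bright CTNNB1 probes. Arrays were closest to their own number in 5 of 6 cases for TGFB1, 6 of 6 for SNAIL and 3 of 6 for shCDH1, a hint from the data and not the design. The block moved no other count of called catenin probes by more than 1.5 times.

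Values called in at least 1 setting that changed sign were CTNNB1 ILMN_1757350 in shCDH1 cells against parental cells (-0.58, from 0.08), CSNK1A1 in shCDH1 cells (-0.19) and TLE1 in SNAIL cells (0.14) against parental cells, GSK3B under TGFB1 without normalization (-0.023) and with a floor (-0.039), and CDH2 for TGFB1 minus shCDH1 with a floor (-0.96) and without background correction (-0.47), from 0.16. The causes were not tested. The median of all probes under TGFB1 shifted by -0.20 without normalization and by -0.29 with a floor, and 14.9% and 11.2% of calls were then higher, against 48.0% in the main setting. For shNT cells 16.9%, 12.6% and, with median centring, 31.1% of calls were higher, against 49.1%. With a floor, 65.1% were higher in shCDH1 cells, 41.4% in SNAIL and 41.0% in lacZ cells, against 54.9%, 51.9% and 51.7%. For the differences of effects the shares without normalization and with a floor were 27.0% and 26.1% for TGFB1 minus SNAIL (48.3%), 16.3% and 10.8% for TGFB1 minus shCDH1 (46.8%), and 39.5% and 32.2% for SNAIL minus shCDH1 (49.6%), with the main share in brackets. Signal near background limits the dim CTNND1 and CTNNB1 probes.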
